A study of Mus musculus with 17 samples.

Results

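The genes of the integrin alpha and beta chains and of the laminin chains were followed in cell lines from the organs of tumor-bearing MMTV-PyMT mice. Members were chosen by name: every gene whose symbol is Itga, Itgb, Lama, Lamb or Lamc followed by a number (with or without a b), plus Itgav. This rule used no measured value and gave 32 of the 55450 genes in the bulk table, made up of 13 integrin alpha, 8 integrin beta, 5 laminin alpha, 3 laminin beta and 3 laminin gamma chains. All 32 were also in the 35849 genes of the single-cell matrices. Leukocyte integrin chains named by a letter, such as Itgal and Itgam, are outside the rule.

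Integrins are surface receptors that pair 1 alpha with 1 beta chain and tie the cytoskeleton to the matrix outside the cell. Laminins are secreted trimers of an alpha, a beta and a gamma chain and form the sheet of the basement membrane on which epithelia rest. In the mammary gland, laminin-332, which holds the chains of Lama3 and Lamb3, is bound by α6β4 integrin (Itga6 and Itgb4), which anchors epithelial cells through hemidesmosomes, and by α3β1 (Itga3 and Itgb1). The chains of Itga1, Itga2, Itga10 and Itga11 pair with that of Itgb1 to bind collagens. The αv integrins, and α5 and α8 with β1, bind the RGD motif of fibronectin, vitronectin and osteopontin.

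The mice were young adult FVB/NJ females carrying MMTV-PyMT, in which the mouse mammary tumor virus promoter drives the polyoma middle T antigen in mammary epithelium and tumors arise there. This transgene was common to all groups, and none came from a mouse without it. Bulk RNA-seq was made from 14 libraries in 7 groups of 2: the mammary fat pad (MFP), site of the primary tumor and the reference here, and CD44low and CD44high cells derived from 3 organs with metastases, which were the lung, the bone marrow (BM) and the lymph nodes (LN). The cells had been grown in culture, which was meant to thin out fibroblasts, and then sorted as EpCAM high with low or high CD44 (the marker levels below bear on how far this was so). For MFP, the labels name the primary tumor while the study's methods speak of derived cells, and it is treated here as such cells; this doubt touches every comparison against MFP. The 2 replicates of a group were clonal isolates from different mice, and the p-values measure the spread between them. The lines came from 10 mice in all, so that isolates of different groups can share a mouse. In bulk libraries, fewer cells of a type and less RNA per cell cannot be told apart. Single-cell RNA-seq was used as 1 matrix each of lung CD44high, lung CD44low and LN CD44high cells, in which isolates could not be separated.

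Between 11508 and 13052 genes reached 1 TPM in a bulk library. The study's methods state a minimum read depth for these libraries, but the depth of each is unknown because TPM do not keep it. The 8 epithelial markers summed to between 2185 and 7583 TPM in the 10 MFP, LN and BM libraries but to between 1.74 and 2.36 TPM in lung CD44low and 15.8 and 87.6 TPM in lung CD44high. Epcam itself was listed at 0 in both lung CD44low libraries and at 0.23 and 0.86 TPM in lung CD44high, and Cdh1 (E-cadherin) stood at 0.03 TPM or less in all 4, which goes against the EpCAM high label. The 8 fibroblast markers summed to 4708 and 5117 TPM in lung CD44low, 85.7 and 195 TPM in lung CD44high and 0.48 to 19.9 TPM elsewhere. Of the basal or myoepithelial markers, Acta2 was at 657 and 711 TPM in lung CD44low. Others of that list were low there: Krt14 was at 0, Krt5, Krt17, Myh11 and Oxtr at 0.15 TPM or less, and Trp63 at 1.65 and 1.8 TPM. The 5 endothelial markers summed to at most 0.21 TPM in any library. The 9 leukocyte markers summed to between 11.1 and 267 TPM, most of it Cd14 and Cd68, 3 to 5 of them were at 0 in each library, Adgre1 was at 0 in all and Ptprc never passed 0.2 TPM. Cd44, the gene of the sorted antigen, was higher in LN CD44low (147 and 82.7 TPM) than in LN CD44high (49.0 and 52.3 TPM), and it overlapped between the CD44 arms of BM and of lung. The 2 libraries of BM CD44low were the least alike (Spearman correlation of 0.895, against 0.919 to 0.975 in the other groups).

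The test compared log2(TPM + 1) between groups with limma across 15348 genes that reached 1 TPM in at least 2 libraries. A gene was called where the log2 fold change was over 2 in size and the Benjamini-Hochberg adjusted p under 0.05. Of the 32 members, 25 passed the filter. The remaining 7 (Itga4, Itga9, Itga10, Itgb2, Itgb7, Lama2 and Lamc3) reached 1 TPM in at most 1 library and never passed 1.72 TPM, the level of Itgb2 in BM CD44high replicate 2. Of the 25, 18 were called in at least 1 of 14 comparisons, against 33.4% of all genes tested. However, a member such as Lama1, Lama3 or Itga11 entered the test only through the group in which it was high. Neither this count nor the p of such a member is therefore support for a difference. The same holds for Itga1, which entered through the 4 lung libraries, where lung was compared with MFP, LN or BM. All log2 values of a difference are of TPM + 1, so that the change of a low gene is understated. Where every library of a group was listed at 0 TPM, the value is only the fitted difference on that scale and is not a fold. Among the members this was so for Lama1 outside lung CD44low, for Lama3 in LN CD44low and lung CD44low, and for Itga11 and Itgb6 in lung CD44high. Comparisons against MFP share the same MFP libraries.

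**Figure D1:**
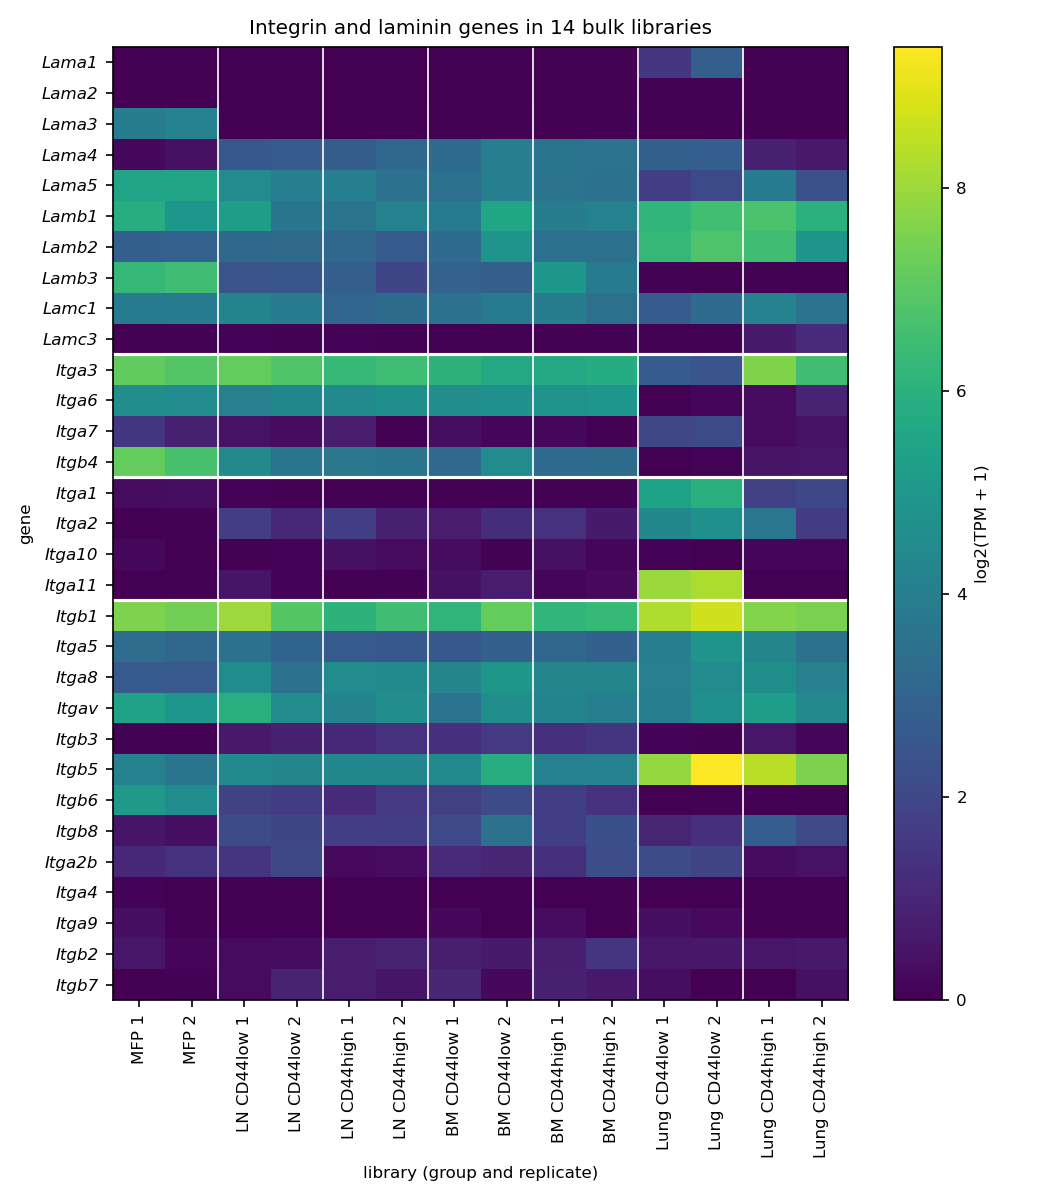
Level of 31 of the members (rows, as log2 of TPM + 1) in each of the 14 bulk libraries (columns), with white lines between groups of 2 libraries and between laminin chains, laminin-binding integrin chains, collagen-binding alpha chains and the rest. Lama3, Lamb3, Itgb4 and Itgb6 are brightest in the MFP columns, and Itga11, at 251 and 300 TPM, is bright in the lung CD44low columns alone.

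Lama3 and Lamb3, both chains of laminin-332, were lower outside MFP. Lama3, Itgb4 and Itgb6 were called lower than MFP in all 6 other groups, as were 1.17% of all genes tested. Of these, Lama3 passed the filter on low values through the MFP libraries alone, so that its calls here and in the counts below are a description. Lamb3 was called lower in 5 of the 6. In LN, 5 members were called lower and 1 higher in CD44low cells (against 2.72% and 2.07% of all genes), and the same numbers in CD44high cells (against 3.68% and 2.44%). In BM, 5 were called lower and 2 higher in CD44low cells (against 3.17% and 3.99%), and 4 lower and 1 higher in CD44high cells (against 4.03% and 3.64%).

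Lama3, the alpha chain of laminin-332, was at 14.4 and 16.7 TPM in the MFP libraries and at 0.05 TPM or less in each of the other 12. Because it passed the filter through the MFP libraries alone, its calls are a description: the fitted log2 difference lay between -4.04 and -3.99 in the 6 groups.

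Lamb3, the beta chain, was at 74.2 and 90.5 TPM in MFP. It was at 4.45 and 4.66 TPM in LN CD44low, 6.14 and 2.94 TPM in LN CD44high, 6.65 and 6.22 TPM in BM CD44low and 31.1 and 13.3 TPM in BM CD44high. In lung it was at 0.05 TPM or less in each of the 4 libraries. BM CD44high therefore kept the highest level outside MFP, and its log2 fold change of -1.95 (SE 0.40, adjusted p = 0.0057) missed the fold limit. The 5 calls ran from -3.48 in BM CD44low to -6.35 in lung CD44high. The difference between BM CD44high and BM CD44low (log2 1.53, adjusted p = 0.44) did not pass the test. Lamb3 spans chr1:193207699-193343878 and holds other genes on the opposite strand within it, and reads of such genes cannot be told apart from its own without strand.

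**Figure D2:**
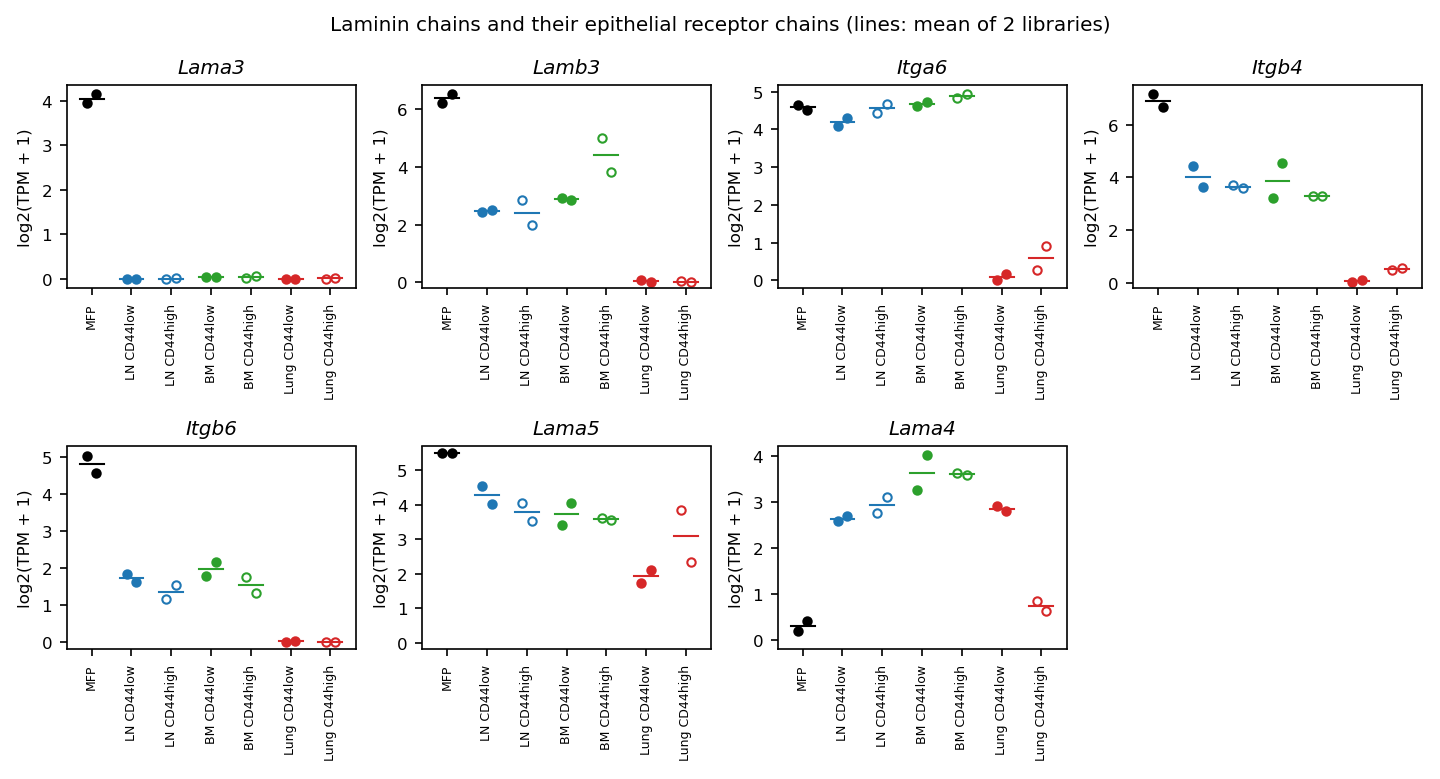
Levels (log2 of TPM + 1) in the 7 bulk groups, with 1 point per library and a line at the mean of 2; filled points are MFP and CD44low and open points CD44high libraries. Lama3, Lamb3, Itgb4 and Itgb6 are highest in MFP, Itga6 is level through LN and BM and drops in lung, and Lama4 is lowest in MFP.

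Itgb4, the beta chain of the hemidesmosome receptor, was at 141 and 100 TPM in MFP. It was at 20.5 and 11.4 TPM in LN CD44low, 12.1 and 11.1 TPM in LN CD44high, 8.19 and 22.2 TPM in BM CD44low and 8.76 and 8.85 TPM in BM CD44high. All 4 lung libraries were at 0.49 TPM or less. The log2 fold change ran from -2.87 in LN CD44low (adjusted p = 0.0014) to -6.85 in lung CD44low (adjusted p = 8e-07), with an SE of 0.42. Itga6, its alpha partner, did not follow it in LN and BM: it was at 24.2 and 21.96 TPM in MFP and in a range of 16.1 to 29.5 TPM over the 8 libraries of LN and BM, with log2 fold changes of -0.39 to 0.29 that did not pass the test. In lung it was at 0.01 and 0.13 TPM in CD44low and 0.21 and 0.88 TPM in CD44high cells, and was called lower than MFP in both (log2 -4.49 and -3.99, SE 0.26).

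Itgb6, the beta chain of αvβ6, an epithelial receptor that activates latent TGF-beta, was at 31.9 and 22.9 TPM in MFP. The 8 libraries of LN and BM held 1.23 to 3.50 TPM, and the 4 lung libraries 0.03 TPM or less, 3 of them listed at 0. Its log2 difference from MFP was -2.83 to -3.46 in LN and BM and -4.79 and -4.81 in lung (SE 0.28). Its partner Itgav was at 41.1 and 29.2 TPM in MFP and 10.9 to 58.7 TPM elsewhere, and passed the test in no comparison against MFP.

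The windows of 250 bases before the start site of Lamb3 and Itgb6, which have entries in the RefSeq promoter table (build GRCm38.p6), are shown to give the sequence context of 2 chains that were lower outside MFP. Each is printed 5′ to 3′ in the direction of transcription, from the most upstream start site listed. The Lamb3 window lies inside the gene span given above, because the GENCODE annotation starts that gene farther upstream than RefSeq does. No base is in capitals because neither window held a match to the AP-1 motif TGANTCA, the TEAD motif GGAATG or the E-box CACCTG bound by Zeb and Snail factors, searched on both strands. A match or its absence describes only these letters.
Lamb3, chr1:193301744-193301993, plus strand: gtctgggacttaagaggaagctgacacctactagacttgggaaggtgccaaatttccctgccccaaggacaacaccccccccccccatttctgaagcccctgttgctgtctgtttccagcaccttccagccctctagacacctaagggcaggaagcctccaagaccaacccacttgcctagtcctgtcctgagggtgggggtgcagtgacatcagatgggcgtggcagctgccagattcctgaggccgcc
Itgb6, chr2:60722604-60722853, minus strand: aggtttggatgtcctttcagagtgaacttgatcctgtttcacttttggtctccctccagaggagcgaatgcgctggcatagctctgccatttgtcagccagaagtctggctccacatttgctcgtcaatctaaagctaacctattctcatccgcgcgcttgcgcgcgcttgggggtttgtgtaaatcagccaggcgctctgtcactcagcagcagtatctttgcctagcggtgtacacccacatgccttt

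Of the 32 members, 21 had an entry in the promoter table. None of the 21 windows held TGANTCA, 2 held GGAATG, 6 held CACCTG and 7 held the GC box GGGCGG, and none held TATAAA. Among all 32851 promoter windows of that length, the shares were 6.75%, 12.6%, 17.2%, 32.7% and 12.4%. CACCTG stood before Itga3, Itga9, Itga11, Itgb5, Itgb8 and Lama5.

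The other laminin alpha chains moved in the opposite direction or less far. Lama4, the alpha chain of laminins of vessels and mesenchyme, was at 0.15 and 0.33 TPM in MFP. It was at 5.01 and 5.51 TPM in LN CD44low, 5.83 and 7.70 TPM in LN CD44high, 8.68 and 15.3 TPM in BM CD44low, 11.4 and 11.02 TPM in BM CD44high, 6.54 and 6 TPM in lung CD44low and 0.81 and 0.56 TPM in lung CD44high. It was called higher than MFP in all groups but lung CD44high (log2 2.34 to 3.34, SE 0.30; lung CD44high 0.44, adjusted p = 0.29). Lama4 was the 1 member called higher in both LN groups and in BM CD44high. Lama5, the main alpha chain of adult epithelial basement membranes, was at 44.0 and 44.1 TPM in MFP and 9.67 to 22.2 TPM in LN and BM. Its log2 fold changes of -1.21 to -1.91 there were under the fold limit, with adjusted p from 0.013 to 0.12. It was called lower in lung CD44low (2.34 and 3.30 TPM, log2 -3.57) and in lung CD44high (13.5 and 4.05 TPM, log2 -2.40, SE 0.46). The lung CD44high call was lost without lung CD44high replicate 2 (log2 -1.64).

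The make-up of the laminin beta and alpha chains differed accordingly. Lamb3 was 54.0% and 71.4% of beta chain TPM in MFP, 7.84% to 56.5% in LN and BM and at most 0.0339% in lung. Lama4 was 0.256% and 0.54% of alpha chain TPM in MFP, 18.4% to 50.6% in LN and BM, 61.2% and 38.6% in lung CD44low and 5.66% and 12.1% in lung CD44high. Lamc1, the gamma chain of most laminins, was at 13.9 and 13.2 TPM in MFP and 5.48 to 17.6 TPM elsewhere, and it was called in no comparison.

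Members called higher in BM and LN were few. Itgb8, the beta chain of αvβ8, another receptor that activates TGF-beta, was at 0.44 and 0.29 TPM in the MFP libraries, 3.56 and 2.85 TPM in LN CD44low, 2.29 and 2.35 TPM in LN CD44high, 2.33 and 3.86 TPM in BM CD44high, 0.98 and 1.4 TPM in lung CD44low and 5.97 and 3.16 TPM in lung CD44high. In BM CD44low it was at 3.16 and 10.3 TPM and was called higher than MFP (log2 2.33, SE 0.45, adjusted p = 0.0047). That call rested on BM CD44low replicate 2, 1 of the least alike pair: without it the log2 fold change was 1.61. Itga8, the alpha chain of an RGD receptor that binds nephronectin, was at 5.31 and 5.16 TPM in MFP and at 9.93 to 30.4 TPM in the other 12 libraries, with no overlap. Its log2 fold changes of 1.37 to 1.99 (SE 0.38, adjusted p from 0.0047 to 0.040) passed the adjusted p in all 6 groups but not the fold limit. After each library was divided by its median ratio to the others, which moved the median of all genes by up to 0.38 on the log2 scale, Itga8 was called in LN CD44high and both BM groups. Itgb3, the beta chain of αvβ3, was at 0.03 and 0 TPM in MFP and at 0.56 to 1.97 TPM in LN and BM, with log2 fold changes of 0.72 to 1.39 there.

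The lung groups had the most members called against MFP. In lung CD44low, 7 members were called higher and 8 lower (against 11.2% and 7.62% of all genes tested), and in lung CD44high 3 were called higher and 7 lower (against 5.42% and 8.03%). The median log2 fold change of the 25 tested members was 0.79 in lung CD44low and 0 in lung CD44high, beside 0 and -0.04 over all genes. Between the mean of the lung groups and that of the LN and BM groups, 6 members were called higher (Itga1, Itga2, Itga11, Itgb5, Lamb1 and Lamb2) and 3 lower (Itga6, Itgb4 and Lamb3), against 7.13% and 5.54% of all genes. Itga1 and Itga11 passed the filter on low values through lung libraries alone. All these calls came in libraries with low epithelial markers, summed to 1.74 and 2.36 TPM in lung CD44low and 15.8 and 87.6 TPM in lung CD44high. In lung CD44low the fibroblast markers were high (values above). The part of these marker levels in the lung results was not tested.

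Itgb5, the beta chain of the vitronectin receptor αvβ5, had levels of 16.6 and 11.6 TPM in MFP, and of 16.6 to 56.2 TPM in LN and BM. It was at 239 and 668 TPM in lung CD44low and 339 and 185 TPM in lung CD44high, so that every lung library was above every other library. The log2 fold change against MFP was 4.75 and 4.08 (SE 0.53, adjusted p = 6.5e-05 and 0.00027), and that against LN and BM was 3.81 (SE 0.33). Itgb5 rose from 4.38% and 3.87% of the summed beta chain TPM in MFP to 43.6% to 62.4% in lung. Itgb1, the partner of most alpha chains, was at 189 and 165 TPM in MFP. It was at 255 and 120 TPM in LN CD44low, 66.1 and 89.0 TPM in LN CD44high, 69.2 and 144 TPM in BM CD44low and 71.3 and 77.8 TPM in BM CD44high. In lung it was at 307 and 417 TPM in CD44low and 197 and 181 TPM in CD44high cells. Itgb1 was called in no comparison, although lung against LN and BM passed the adjusted p (log2 1.37, SE 0.24, adjusted p = 0.00084).

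Lamb2, a beta chain of laminins at vessels and synapses, was at 6.34 and 6.77 TPM in MFP and 5.28 to 28.2 TPM in LN and BM. It was at 75.4 and 111 TPM in lung CD44low and 89.1 and 27.8 TPM in lung CD44high, the last overlapping with BM CD44low replicate 2. It was called higher than MFP in both (log2 3.61 and 2.75, SE 0.57), and the lung CD44high call was lost without lung CD44high replicate 1 (log2 1.93). Lamb1, the more common beta chain, was at 57.0 and 29.5 TPM in MFP and did not pass the test against MFP in any group. It was at 11.2 to 44.9 TPM in LN and BM and 62.5 to 106 TPM in lung, and the difference between these (log2 2.11, SE 0.38) was close to the fold limit: it fell to 1.84 with median-ratio scaling, and to 1.92 without LN CD44low replicate 2, 1.91 without BM CD44low replicate 1 and 1.93 without lung CD44high replicate 1, each of which ended the call.

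**Figure D3:**
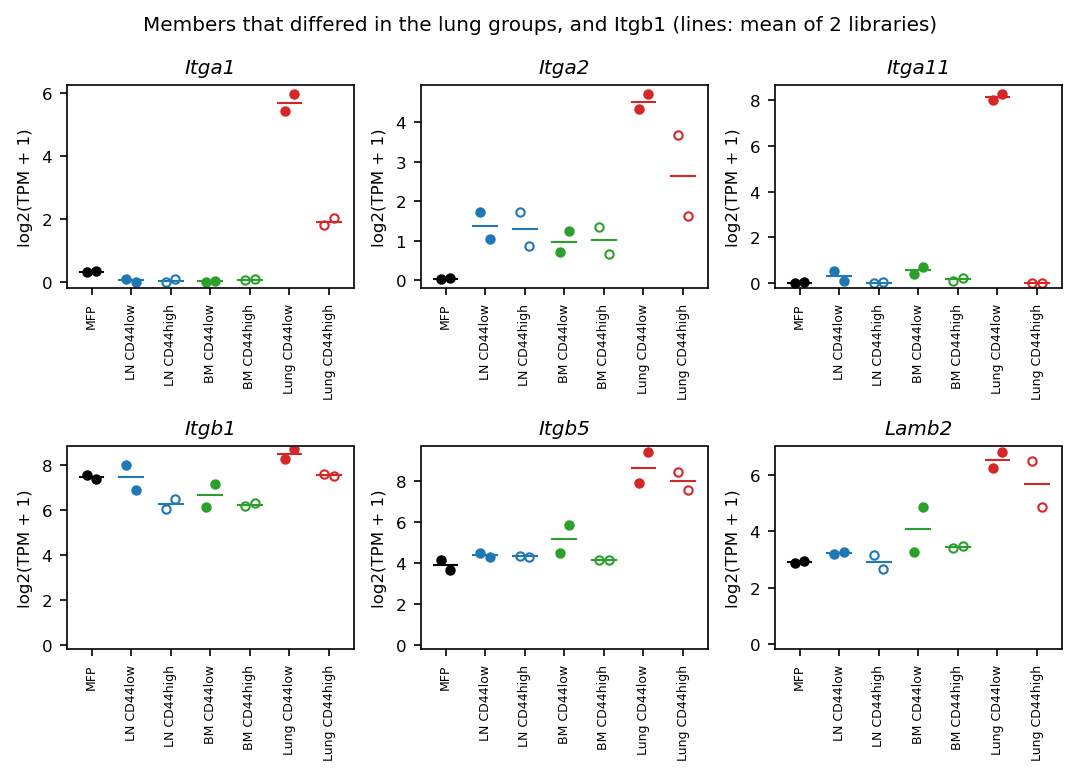
Levels (log2 of TPM + 1) in the 7 bulk groups, with 1 point per library and a line at the mean of 2; filled points are MFP and CD44low and open points CD44high libraries. Itga1, Itga2 and Itga11 are highest in lung CD44low, and the 4 lung libraries of Itgb5, from 185 to 668 TPM, lie above all others.

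The collagen-binding alpha chains were high in lung CD44low cells. Itga11, a receptor chain for fibrillar collagen known from fibroblasts, was at 251 and 300.0 TPM in lung CD44low and at 0.65 TPM or less in the other 12 libraries, and was listed at 0 in both lung CD44high libraries. It passed the filter on low values through the 2 lung CD44low libraries alone, and its calls are therefore a description: the fitted log2 difference from MFP was 8.08. Itga1, a receptor chain for basement membrane and fibrillar collagen, was at 42.4 and 61.6 TPM in lung CD44low, 2.47 and 3.08 TPM in lung CD44high and at most 0.26 TPM in the other 10. It passed the filter on low values through the 4 lung libraries alone, so that its calls of lung against MFP, LN and BM are a description. Its log2 fold change against MFP was 5.39 in lung CD44low and, under the fold limit, 1.60 in lung CD44high (SE 0.22). Itga2, the chain of the α2β1 collagen receptor, was at 19.2 and 25.2 TPM in lung CD44low and 11.8 and 2.07 TPM in lung CD44high, against 0.02 and 0.03 TPM in MFP and 0.59 to 2.32 TPM in LN and BM. It was called higher than MFP in both lung groups (log2 4.49 and 2.61, SE 0.61). Lung CD44high replicate 1 carried the second call: without it the log2 fold change was 1.58, and that of lung against LN and BM fell from 2.42 to 1.91. Itga10, the remaining collagen receptor chain, was at 0.35 TPM or less in every library.

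Itga1 and Itga2 are neighbors on chromosome 13, on the same strand with 20995 bases between them (Itga1 at chr13:114953096-115101964 and Itga2 at chr13:114833081-114932100, mm10), and Itga11 lies at chr9:62677826-62783982. Pelo, a gene within the span of Itga1 on its strand, was at 11.4 and 13.6 TPM in lung CD44low and 0.63 to 3.51 TPM elsewhere, and its part in the Itga1 values was not tested. The windows before the starts of these 3 genes are shown because they were the collagen receptor chains called in lung CD44low. Capitals mark the E-box CACCTG or its reverse complement, which occurred once, in Itga11, with its first base 121 bases before the start. No AP-1 or TEAD motif was found in them.
Itga1, chr13:115101965-115102214, minus strand: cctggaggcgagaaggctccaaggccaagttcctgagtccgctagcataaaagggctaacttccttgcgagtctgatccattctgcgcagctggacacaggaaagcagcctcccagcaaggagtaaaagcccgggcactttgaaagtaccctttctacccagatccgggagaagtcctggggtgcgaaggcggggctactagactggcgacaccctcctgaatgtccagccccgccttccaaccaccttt
Itga2, chr13:114932101-114932350, minus strand: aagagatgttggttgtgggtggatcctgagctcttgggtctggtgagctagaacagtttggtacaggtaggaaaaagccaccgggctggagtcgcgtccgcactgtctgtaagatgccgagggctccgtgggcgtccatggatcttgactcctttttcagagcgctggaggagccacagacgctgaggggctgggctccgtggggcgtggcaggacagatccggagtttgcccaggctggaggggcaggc
Itga11, chr9:62677605-62677854, plus strand: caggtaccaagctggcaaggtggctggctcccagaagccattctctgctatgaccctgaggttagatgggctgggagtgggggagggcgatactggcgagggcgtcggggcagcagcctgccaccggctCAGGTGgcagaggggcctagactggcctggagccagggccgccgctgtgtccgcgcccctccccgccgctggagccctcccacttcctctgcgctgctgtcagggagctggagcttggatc

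In the bulk libraries of lung CD44low, Itga11 took the place of Itga3 as the alpha chain with the highest TPM. Itga3, the chain of the laminin receptor α3β1, was 62.6% and 63.3% of the summed alpha chain TPM in MFP, 35.5% to 64.7% in LN and BM and 67.5% and 62.7% in lung CD44high. In lung CD44low it was 1.51% and 0.958%, where Itga11 made up 67.5% and 63.4%. The level of Itga3 was 140 and 115 TPM in the MFP libraries, 141 and 114 TPM in LN CD44low, 76.4 and 87.1 TPM in LN CD44high, 65.6 and 49.3 TPM in BM CD44low and 49.9 and 54.8 TPM in BM CD44high. In lung it was 5.62 and 4.53 TPM in CD44low cells (log2 -4.40 against MFP, SE 0.33) and 196 and 90.6 TPM in CD44high cells (log2 0.07, adjusted p = 0.93).

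Lama1, the alpha chain of embryonic laminin-111, was listed at 0 in all libraries but those of lung CD44low, at 1.79 and 6.23 TPM. Because its comparison groups were at 0, no fold is given. It passed the filter on low values through these 2 libraries alone, and its calls are therefore a description: the fitted difference from MFP was 2.17 on the log2(TPM + 1) scale.

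Between the CD44 arms, members differed in lung. There, 1 member was called higher in CD44high cells and 4 lower (against 2.49% and 8.8% of all genes). The 1 higher was Itga3 (log2 4.47, SE 0.33). The 4 lower were Itga1 (log2 -3.79, SE 0.22) and Lama4 (-2.11, SE 0.30), with Itga11 and Lama1, which were listed at 0 in CD44high cells (fitted differences of -8.11 and -2.17). Of the others, Itga7, the laminin receptor chain of muscle, was at 2.95 and 3.34 TPM in CD44low and 0.22 and 0.36 TPM in CD44high cells, and Itga2b, the platelet fibrinogen receptor chain, was at 3.37 and 2.84 TPM and 0.24 and 0.38 TPM. Both passed the adjusted p but not the fold limit (log2 -1.68 and -1.65), as did Itga2 at the levels given above (log2 -1.87, SE 0.61, adjusted p = 0.041). Elsewhere Itga2b was at 1.14 and 1.61 TPM in the MFP libraries, 1.69 and 3.08 TPM in LN CD44low, 0.18 and 0.22 TPM in LN CD44high, 1.2 and 1.02 TPM in BM CD44low and 1.49 and 3.66 TPM in BM CD44high. The fibroblast markers moved with this comparison (7 of 8 were called lower in CD44high cells), and their part in it was not tested. Among these markers, Col1a2, Thy1 and Lum passed the filter on low values through the lung CD44low libraries alone, so that their calls are a description. Other markers of platelets than Itga2b did not pass the filter on low values.

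**Figure D4:**
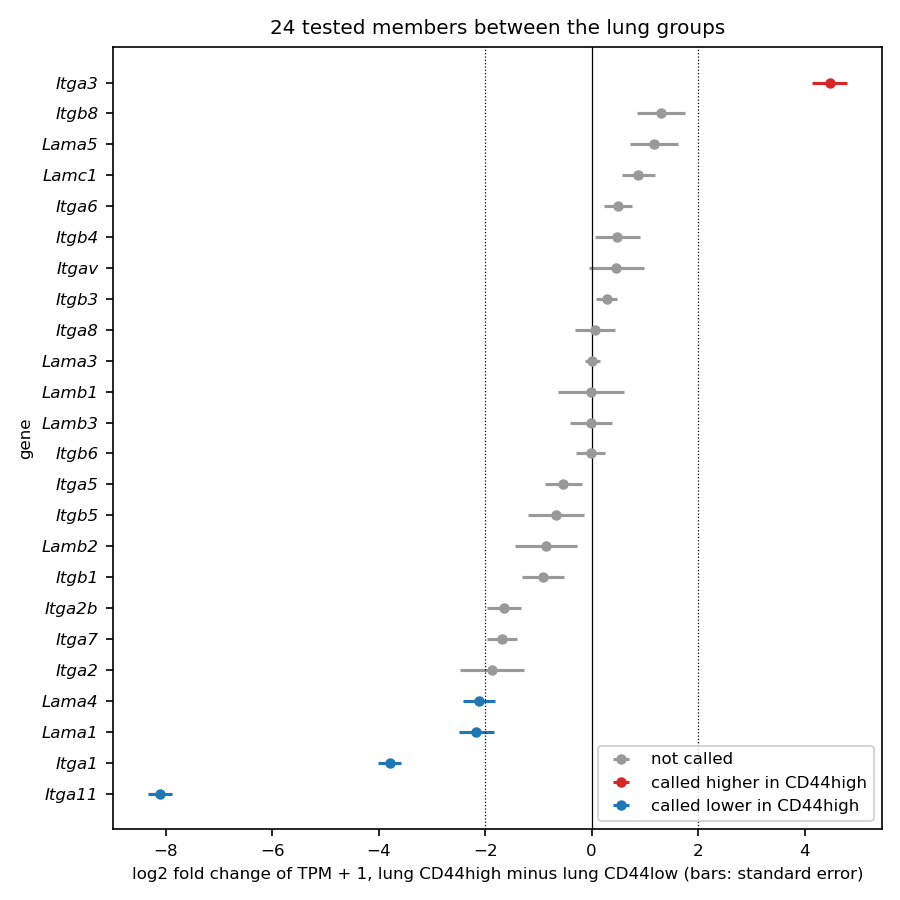
Log2 fold change of TPM + 1 between lung CD44high and lung CD44low cells for 24 of the tested members, with bars of 1 standard error and dotted lines at the fold limit of 2. Itga3 (4.47) lies beyond the limit on the right, and Lama4, Lama1, Itga1 and Itga11 (-8.11) beyond it on the left.

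In LN and BM no member was called between CD44high and CD44low cells with limma (against 0.208% and 0.104% of all genes in either direction), and none passed the adjusted p at any fold. At an unadjusted p under 0.05 there were 5 members in LN and 1 in BM. Between BM and LN no member was called either (against 0.397%), with 5 at an unadjusted p under 0.05. Averaged over the 3 organs, Itga11 was the 1 member called (fitted difference of -2.93, against 1.02% of all genes), which given its levels restates that of lung. The CD44 difference in lung was itself tested against that in LN, where 5 members were called (10.4% of all genes), and against that in BM, where 6 were called (8.66%).

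Genes that work with integrins were followed in lists chosen beside the members. Of 18 adaptors of focal adhesions, 17 were tested. In lung CD44low 4 were called higher and 1 lower than MFP (against 11.2% and 7.62% of all genes), in lung CD44high 1 lower (against 8.03%), in BM CD44high 2 lower (against 4.03%), and in LN CD44low, LN CD44high and BM CD44low 1 lower each (against 2.72%, 3.68% and 3.17%). Fermt1, the epithelial kindlin that activates integrins, was called lower in all 6 groups (log2 -2.32 to -2.5 in LN and BM, and listed at 0 in all 4 lung libraries), while in lung CD44low its widely expressed relative Fermt2 (2.42), the focal adhesion protein gene Zyx (4.48) and Lims2 (3.11) were called higher. Of 6 hemidesmosome genes, 4 were tested. Krt14, a basal keratin, was at 594 and 655 TPM in MFP, 12.6 to 62.4 TPM in LN and BM and 0 in lung, and was called lower in all 6 groups. Cd151, a tetraspanin partner of laminin-binding integrins, was called higher in both lung groups (log2 2.46 and 3.82). Krt5 and Col17a1, defining genes of basal cells and hemidesmosomes, were at or near 0 in all libraries, at most 0.06 and 0.58 TPM.

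Of 12 basement membrane partners, 2 were called higher and 3 lower than MFP in lung CD44low (against 11.2% and 7.62% of all genes), and 5 lower in lung CD44high (against 8.03%). Hspg2, the gene of perlecan, was called higher than MFP in lung CD44low (log2 2.71) and lower in lung CD44high than in lung CD44low (-4.19). The gene of nidogen, Nid1, which links laminin to collagen IV, was at 11.1 and 30.5 TPM in lung CD44low, at 0.28 TPM or less elsewhere and listed at 0 in MFP, and it passed the filter on low values through the 2 lung CD44low libraries alone, so that its calls are a description. Col4a1, a collagen IV chain, was called lower than MFP in both lung groups (-2.16 and -5.59). In each LN and BM group 1 of the 12 was called, Col18a1 (log2 2.02 to 2.3, against 2.07%, 2.44%, 3.99% and 3.64% of all genes called higher in LN CD44low, LN CD44high, BM CD44low and BM CD44high), and it was lower than MFP in lung CD44high (-3.60).

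Of 12 integrin ligands, 11 were tested. There were 2 called higher and 2 lower than MFP in LN CD44low (against 2.07% and 2.72% of all genes), 2 higher and 1 lower in LN CD44high (against 2.44% and 3.68%), 2 higher and 1 lower in BM CD44low (against 3.99% and 3.17%), 4 higher and 3 lower in BM CD44high (against 3.64% and 4.03%), 5 higher and 1 lower in lung CD44low (against 11.2% and 7.62%) and 3 in each direction in lung CD44high (against 5.42% and 8.03%). Spp1, the gene of the RGD ligand osteopontin, was called higher than MFP in all 6 groups (log2 3.29 to 6.06) and reached 9361 TPM in BM CD44high replicate 1. Fn1, the gene of fibronectin, was called higher in both lung groups (log2 5.17 and 4.55), and Npnt, the gene of the α8β1 ligand nephronectin, was called lower in LN and BM (log2 -2.22 to -3.80) and in lung CD44high, where it was listed at 0. Edil3, an αv ligand gene, was called higher in the 4 LN and BM groups (log2 2.64 to 3.60). Of 6 genes of TGF-beta that integrins activate, 5 were tested. In lung CD44low 4 were called higher than MFP (against 11.2% of all genes), in lung CD44high 3 higher (against 5.42%), in BM CD44high 2 higher and 1 lower (against 3.64% and 4.03%), and in LN CD44low, LN CD44high and BM CD44low 1 higher each (against 2.07%, 2.44% and 3.99%). Tgfb3 was called higher in all 6 groups (log2 3.90 to 6.80). Ltbp1, which holds latent TGF-beta in the matrix, was called higher in both lung groups (log2 3.85 and 3.36) and lower in BM CD44high (-2.47).

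The single-cell matrices held 3623, 2808 and 3297 barcodes for lung CD44high, lung CD44low and LN CD44high, of which 1236, 348 and 2562 passed the limits of over 250 genes detected and under 10% of counts from mitochondrial genes. Median counts per kept cell were 557, 4011 and 585. Columns are numbered and carry no barcode, so that barcodes shared between libraries could not be counted. Levels are summed counts per 10000 over kept cells with exact Poisson 95% intervals, which cover counting error only. With 1 library per group there is no replicate and no test. The limit used here for any count of 0 is the level of 3 counts, which is 0.0136 in lung CD44high, 0.0135 in lung CD44low and 0.00567 in LN CD44high and lies a little below the upper end of the exact interval. In the order lung CD44high, lung CD44low and LN CD44high, 5, 4 and 2 of the 8 epithelial markers had no count and the 8 summed to 4.27, 0.878 and 9.18 per 10000. Epcam was at 0.0136, 0 and 1.77, but Krt18 was higher in lung CD44high (2.59) than in LN CD44high (1.17). The 8 fibroblast markers had no count in 5, 1 and 4 cases and summed to 0.267, 21.4 and 0.115. In lung CD44low most of that sum was Col1a2 (14.4) and Col1a1 (4.35), while Dcn was at 0.0991 and Lum at 0, although both were among the highest fibroblast markers of the bulk libraries (4091 and 4315 TPM for Dcn, 362 and 217 TPM for Lum).

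The levels of Itgb5, Itgb1, Lamb1 and Lamb2 were higher in both lung libraries than in the LN library. Itgb5 was at 11.2 per 10000 in lung CD44high (95% interval 10.8 to 11.6), 7.27 in lung CD44low (6.92 to 7.64) and 1.63 in LN CD44high (1.53 to 1.75). Itgb1 was at 6.5 (6.17 to 6.85), 8.85 (8.46 to 9.25) and 4.05 (3.88 to 4.23) in the same order. Lamb1 was at 1.33, 1.31 and 0.38, and Lamb2 at 0.484, 0.315 and 0.136. For these 4 genes the intervals of either lung library lay above that of LN CD44high.

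The collagen-binding chains Itga1, Itga2 and Itga11 were again highest in lung CD44low cells. Itgb5 and Lamb2, also called higher than MFP in bulk lung CD44low, were instead highest in lung CD44high cells. For Lamb2, the intervals of lung CD44high (0.397 to 0.585) and lung CD44low (0.246 to 0.398) overlapped. Itga1 had 148 counts (0.666 per 10000, 0.563 to 0.783) in lung CD44low, 10 in lung CD44high and 1 in LN CD44high. Itga11 had 66 counts (0.297, 0.23 to 0.378) in lung CD44low and 0 in both others. Itga2 had 47 counts in lung CD44low, 3 in lung CD44high and 10 in LN CD44high. Itga5, the chain of the fibronectin receptor α5β1, had 231 counts (1.04, 0.91 to 1.18) in lung CD44low. It had 11 (0.0498) in lung CD44high and 8 (0.0151) in LN CD44high. Its bulk levels of 15.4 and 27.9 TPM in lung CD44low and 18.4 and 10.7 TPM in lung CD44high overlapped. Itga3 had the reverse order, with 0.153 in lung CD44low, 0.615 in lung CD44high and 0.486 in LN CD44high. Lama4 was at 0.14 and 0.119 in lung CD44low and LN CD44high and at 0 in lung CD44high.

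**Figure D5:**
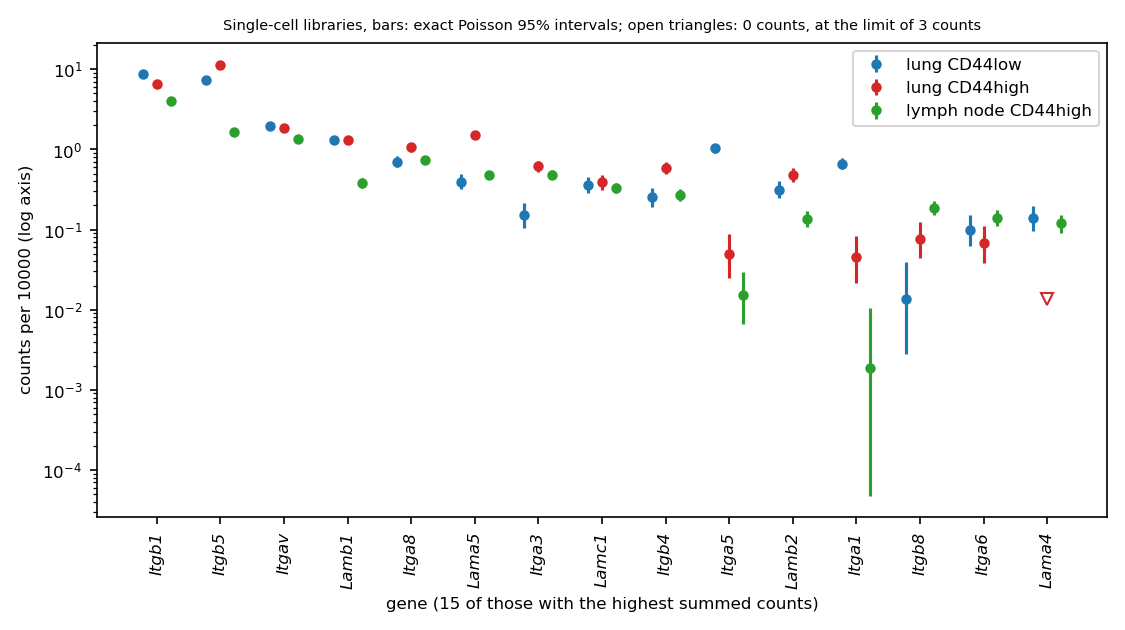
Counts per 10000 (log axis) of 15 members with high counts in the 3 single-cell libraries, with exact Poisson 95% intervals and an open triangle at the limit of 3 counts where there was no count. Itgb5 is at 11.2 and 7.27 in the lung libraries and 1.63 in LN CD44high, and Itga1 and Itga5 stand highest in lung CD44low.

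Some members differed in order between the assays. Itga11 had the highest TPM of the alpha chains in bulk lung CD44low. In the single cells of that group, Itgav (1.99 per 10000), Itga5 (1.04), Itga8 (0.702) and Itga1 (0.666) were above it (0.297). In lung CD44high and LN CD44high cells, Itga3 (0.615 and 0.486) stood below Itgav (1.87 and 1.37) and Itga8 (1.07 and 0.73). Itgb4 was near 0 in the bulk lung libraries but had 130 counts in lung CD44high cells (0.588, 0.491 to 0.698), 56 in lung CD44low (0.252) and 144 in LN CD44high (0.272). Its gene ends 44 bases from the end of Galk1, a gene on the opposite strand, in a 3′ assay, and Galk1 was at 1.37, 0.968 and 0.46 per 10000 in these libraries. In bulk, Galk1 was at 207 and 274 TPM in lung CD44high, 59.8 and 64.5 TPM in lung CD44low and 158 and 117 TPM in LN CD44high. Lama5 was at 1.52, 0.396 and 0.48 per 10000, and its gene ends 86 bases from that of Adrm1, at 1.28, 0.684 and 0.989. The bulk levels of Adrm1 had another order, with 77.5 and 106 TPM in lung CD44high, 192 and 193 TPM in lung CD44low and 161 and 151 TPM in LN CD44high. The part of these neighbors in the counts was not tested. Itga6, near 0 in the bulk lung libraries, was at 0.0679, 0.0991 and 0.14 per 10000, with intervals of 0.0621 to 0.15 in lung CD44low and 0.11 to 0.176 in LN CD44high that overlapped. In cells with over 500 genes, the level of Itga6 in lung CD44high fell to 0.0242 (4 counts, 0.00659 to 0.0619), below the interval of LN CD44high (0.135 to 0.219), while that of lung CD44low (0.0641 to 0.155) still overlapped with it. Lama3 and Lamb3 were rare in all 3: Lama3 had 0, 1 and 0 counts and Lamb3 18, 0 and 17 in lung CD44high, lung CD44low and LN CD44high. Of the 32 members, Itgb7 and Lama2 had no count in any of the kept cells.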

How the data were processed

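Bulk RNA-seq of 14 libraries and single-cell RNA-seq of 3 libraries were used as deposited. For the bulk table, the authors made cDNA by a modified SMART-seq2 protocol with Nextera XT libraries, aligned reads to mm10 with STAR, estimated gene levels with RSEM (annotation given as GENCODE v21) and deposited the TPM of each Ensembl gene. This protocol keeps no strand. The deposited single-cell counts came from SureCell 3′ libraries on the ddSeq platform, quantified with kallisto; whether they are collapsed molecules is not given in the sources used here, and neither are tool versions. Symbols came from the single-cell row names (35849 of 55450 bulk identifiers had one), and gene positions from GENCODE vM21 (GRCm38). Promoter windows came from the RefSeq table. Per the labels, samples were grouped by organ and CD44 arm.

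log2(TPM + 1) was fitted with limma 3.58.1 in R 4.3.3 (lmFit, eBayes with trend, 7 group means, 7 residual degrees of freedom, 14 contrasts), with Benjamini-Hochberg adjustment over 15348 genes, those that 2 or more libraries held at 1 TPM or above; all limma tests were two-sided. Counts for the study's own count test were not used here. On simulated data, 87% of 200 genes shifted by log2 3 were recovered for lung CD44low against MFP, 82% for CD44high against CD44low in lung, 96% for lung against LN and BM and 63% for the CD44 difference in lung minus that in LN, each among 15348 genes. Single-cell counts were summed over barcodes that passed limits of over 250 detected genes and under 10% of counts from mitochondrial genes; doublets were not called.

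1 member is counted among the members but not reported here. The members and gene lists were chosen with earlier results of these data known. The rule was to give values in every library, or the range over groups, for members called in at least 1 comparison or with a group mean of at least 50 TPM, and to name list genes if called, at most the 4 largest changes per list and comparison; Cd44, Pelo, Galk1, Adrm1, Krt5, Col17a1 and single markers were named after their values were seen. Alternatives were another pseudocount (0.1), other filters, median-ratio scaling, a replicate block, other call rules, smaller fits and each library left out.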

Additional observations from a re-analysis of the deposited data

Results flagged for a closer look

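Differences in the CD44 effect between organs stood out for 6 members, by the test of the difference itself (limma, adjusted over 15348 genes). The log2 difference of CD44high minus CD44low in lung minus that in LN was -3.79 for Itga1, 5.11 for Itga3, -7.81 for Itga11, -2.17 for Lama1 and -2.41 for Lama4, with adjusted p of at most 0.0103. Against BM it was -3.84 for Itga1, 4.59 for Itga3, -7.72 for Itga11, -2.17 for Lama1, -2.07 for Lama4 and -2.34 for Itga2b, with adjusted p of at most 0.0114. Lama1 was listed at 0 in every LN and BM library, so that its value is that of lung alone, and it passed the filter on low values only through the 2 lung CD44low libraries; Itga11 passed it through the same libraries. Their values are a description. The call of Lama4 against BM was lost without BM CD44low replicate 1 (-1.70) and without lung CD44high replicate 2 (-1.97), that of Itga2b without BM CD44high replicate 2 (-1.89), and that of Lama1 against BM in a fit of only the groups compared (adjusted p = 0.055). Fibroblast markers moved with lung CD44low, as given above, and their part in these values was not tested.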

How the results depend on the processing

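Of 75 calls of a member in a comparison, 9 were lost under at least 1 alternative in which the member was tested (named with their values above, apart from Itgb8 in BM CD44low, also lost in a fit of only the groups compared at adjusted p = 0.069), and 0 reversed. With a pseudocount of 0.1, counts of members called moved to 11 in LN CD44high, 11 in BM CD44low and 10 in BM CD44high against MFP, and to 8 between the CD44 arms of lung. At an adjusted p under 0.05 and any fold, they moved to 10, 12 and 13 in the same 3 groups, 9 for the lung CD44 comparison, 9 averaged over organs and 18 for lung against LN and BM. Leaving out 1 library gave 3 to 6 members for the lung CD44 comparison, 0 to 1 for the average over organs and 3 to 7 for lung minus LN: without either lung CD44low library, Itga11 and Lama1 dropped below the filter on low values. The lone library of a group was then assumed to vary like the others.

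Replicate numbers showed little pairing of the samples (21 pairs of groups, correlations of replicate differences from -0.19 to 0.17, 3 of them over 0.1). These correlations cannot exclude that isolates of the same number share a mouse. With the replicate number as a block, counts were 6, 6, 7, 5, 15 and 10 against MFP, and the block changed no call. Without the 4 lung libraries, a fit chosen after seeing the data, no call in the LN and BM comparisons changed. The summed single-cell level of the members moved to 28.4 per 10000 (cells with over 500 genes) and 23.8 (all barcodes) in lung CD44high, to 20.8 (all barcodes) in lung CD44low and to 12.1 (over 500 genes) in LN CD44high. With 2 isolates per group and the read depth of each bulk library unknown, a difference that missed the test is not shown to be absent.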
